A study of Homo sapiens with 6 samples.

Results

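DHRS2 and genes of related retinoid dehydrogenases were followed in H1299, an established cell line from a human lung carcinoma of the non-small cell type, after SETDB1 was targeted. The members were 10 genes listed by symbol: DHRS1, DHRS2, DHRS3, DHRS4, DHRS7, RDH10, RDH11, ALDH1A1, ALDH1A3 and CYP26B1. DHRS2 was picked for the size of its rise in the same comparison, so its difference is described here without a test, and the other genes were listed for their family or pathway. Rows of the count table were matched to these symbols through their Ensembl identifiers, which gave 9 genes of 18677 rows; ALDH1A1 was not analysed here. All 9 were retained by the filter on low counts, although ALDH1A3 reached the filter's level only in the SETDB1 knockout and CYP26B1 only in the control, so that neither could have been tested without a higher level in that group.

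The study compared 3 RNA-seq libraries of H1299 cells with a guide RNA against SETDB1 (hSETDB1 sg1) with 3 libraries of H1299 cells with a control guide (Control sg2). SETDB1 writes H3K9me3, a histone mark of silenced chromatin. Both lines were grown in RPMI-1640 with serum, antibiotics and puromycin, and each group was made with 1 guide. The labels do not say whether a line was a clone or a pool, or whether replicates were separate cultures, so p-values measure only the spread between these libraries.

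Short-chain dehydrogenases of the RDH and DHRS type interconvert retinol and retinaldehyde, and also steroids and other carbonyl compounds. Retinaldehyde dehydrogenases of the ALDH1A type oxidise retinaldehyde irreversibly to retinoic acid, which binds nuclear receptors of the RAR and RXR type, and CYP26 enzymes break retinoic acid down. DHRS2, also called Hep27, is a dicarbonyl reductase that lies in the same stretch of chromosome 14 as its paralog DHRS4 and whose part in retinoid metabolism is less well established than that of RDH10 or DHRS3. RNA levels alone do not show which substrate an enzyme uses in these cells.

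Total counts ranged from 29532057 to 35941288 per library. SETDB1 mRNA stood at 38.6 ± 2.31 CPM in SETDB1-knockout cells and 43.5 ± 1.76 CPM in control cells (SD, n = 3 each), a log2 fold change of -0.17 ± 0.06 (SE; edgeR adjusted p = 0.0151); it was no longer called with SETDB1-knockout replicate 2 left out (edgeR adjusted p = 0.0896) or with library size alone (0.0604). The epithelial keratin gene KRT18 had 332 ± 6.42 CPM in SETDB1-knockout cells and 599 ± 30.7 CPM in control cells, and VIM, which encodes vimentin, had 2215 ± 58.5 CPM in SETDB1-knockout cells and 2430 ± 61.3 CPM in control cells. Measured markers of fibroblasts and of the lung lineage were low. The summed level of DCN and PDGFRB, the 2 of 3 fibroblast markers measured, was 0.322 to 0.664 CPM in SETDB1-knockout cells and 0.593 to 0.6004 CPM in control cells. The 2 endothelial markers had no row here, and of 5 lung lineage markers NKX2-1 and NAPSA together reached 0.664 to 1.05 CPM in SETDB1-knockout cells and 0.6004 to 0.946 CPM in control cells. In both sums the genes moved in opposite directions. NKX2-1 averaged 0.266 CPM in SETDB1-knockout cells and 0.525 CPM in control cells, and NAPSA 0.640 and 0.226 CPM. In the same order, DCN averaged 0.385 and 0.164 CPM and PDGFRB 0.0996 and 0.433 CPM. The part of such cells in the results was not tested.

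The sequences before the annotated starts of 4 members are shown because DHRS2 differs from the other 3 in base composition. They are the 250 bases before the RefSeq start (GRCh38.p14), written 5′ to 3′ along the gene, with CG dinucleotides and the motif TATAAA in capitals. DHRS2 is on the plus strand at chr14:23629865-23630114 and DHRS4 on the plus strand at chr14:23953520-23953769. ALDH1A3 is on the plus strand at chr15:100879581-100879830 and DHRS3 on the minus strand at chr1:12618211-12618460.
DHRS2: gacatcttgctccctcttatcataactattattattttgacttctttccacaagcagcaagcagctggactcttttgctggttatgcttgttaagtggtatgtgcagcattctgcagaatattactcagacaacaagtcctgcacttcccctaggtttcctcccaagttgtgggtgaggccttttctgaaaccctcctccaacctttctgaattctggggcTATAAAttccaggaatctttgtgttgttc
DHRS4: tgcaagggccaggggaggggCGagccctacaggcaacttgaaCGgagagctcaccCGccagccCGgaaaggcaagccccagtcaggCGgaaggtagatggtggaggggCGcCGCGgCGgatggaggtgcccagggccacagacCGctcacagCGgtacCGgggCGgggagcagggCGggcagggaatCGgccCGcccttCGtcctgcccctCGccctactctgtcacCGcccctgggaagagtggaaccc
ALDH1A3: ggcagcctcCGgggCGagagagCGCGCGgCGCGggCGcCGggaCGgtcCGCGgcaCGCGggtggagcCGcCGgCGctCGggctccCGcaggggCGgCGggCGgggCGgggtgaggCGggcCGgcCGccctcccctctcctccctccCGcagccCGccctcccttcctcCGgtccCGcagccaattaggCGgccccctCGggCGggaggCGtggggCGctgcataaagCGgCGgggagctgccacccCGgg
DHRS3: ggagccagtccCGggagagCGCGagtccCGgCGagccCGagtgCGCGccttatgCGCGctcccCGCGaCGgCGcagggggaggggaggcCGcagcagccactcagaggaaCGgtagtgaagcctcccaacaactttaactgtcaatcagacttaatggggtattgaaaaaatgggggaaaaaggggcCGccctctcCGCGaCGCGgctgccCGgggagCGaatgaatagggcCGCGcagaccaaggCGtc
The DHRS2 window held 0 CG dinucleotides at 43.2% G and C, whereas the windows of DHRS4, ALDH1A3 and DHRS3 held 19, 38 and 26. Among the member windows examined but not shown, that of RDH11 held 8 at 52.8% G and C, and those of CYP26B1 and DHRS1 held 16 and 28. Among 35116 windows of this length in the RefSeq table, the median was 11 CG dinucleotides and 6.06% held none. DHRS2 also held 1 TATAAA, searched on both strands, which 10.7% of all windows held, and the other 3 windows shown held 0. Of the 7 member windows examined, that of CYP26B1 also held 1 TATAAA. The half-site of retinoic acid response elements, AGGTCA, was in none of the 4 windows on either strand and in 12.1% of all windows. Its variant GGTTCA was in none of the 4 and in 7.16% of all windows. A further variant, AGTTCA, was in none of the 4 and in 8.80% of all windows. GENCODE 29 places 2 DHRS2 transcripts at the start used here, position 23630115, and the others start at 23636335 or beyond, so the window lies before only some of its annotated starts. The windows of ALDH1A3, DHRS3 and DHRS4 lie at RefSeq starts 2117, 479 and 184 bases from the GENCODE 29 starts of these genes. By GENCODE 29 coordinates the ALDH1A3 window lies within the gene and the DHRS4 window partly within it. The counts are per gene and do not show which start was used, and a missing match says only that these letters are not in the window.

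DHRS2 (ENSG00000100867, GRCh38 chromosome 14, 23630115 to 23645639) had 240.03, 221 and 225 CPM, which is reads scaled to the same library total, in the SETDB1-knockout libraries, against 2.27, 2.18 and 1.47 CPM in control libraries. These rest on 7204, 7656 and 7689 reads in the SETDB1 knockout and 68, 69 and 52 reads in the control. The groups did not overlap, and the lowest control library was replicate 3. The log2 fold change was 6.87, or 116-fold between the mean CPM of the groups, which placed DHRS2 at rank 94 by fitted fold among 17675 genes tested, a rank that depends on how genes without control reads are fitted. These are the values for which the gene was chosen. In bulk RNA, a higher level in every cell cannot be told apart from more cells with the gene active.

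**Figure D1:**
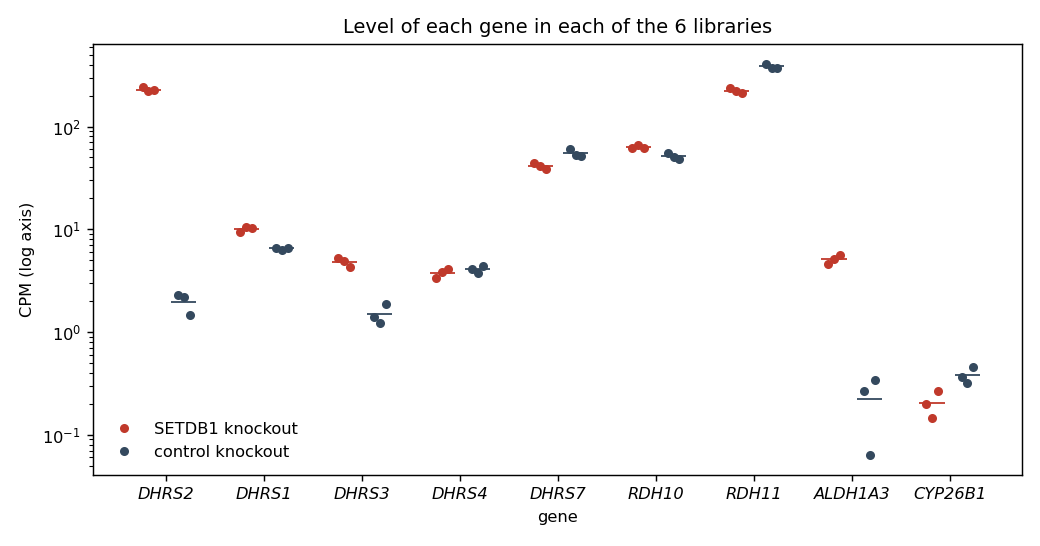
CPM on a log axis of each measured member in each library, with SETDB1-knockout libraries in red to the left of control libraries in dark blue; points are libraries and bars group means (n = 3 each). DHRS2 averages 229 CPM in SETDB1-knockout cells and 1.97 CPM in control cells, ALDH1A3 and DHRS3 also stand higher, and DHRS4 overlaps.

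The annotated transcripts of DHRS2 share almost no sequence with those of other genes. Of 7876 windows of 50 bases in its annotated transcripts, 0.114% also occurred in transcripts of another gene, and none occurred in DHRS4, DHRS4L1 or DHRS4L2. The DHRS4 group differs in this, since 48.0% of DHRS4 windows occurred in another gene and 35.4% in DHRS4L2, so values of DHRS4 and DHRS4L2 are uncertain. DHRS7 shares 24.3% of its windows with the overlapping gene PCNX4, and ALDH1A3 shares 24.1% with the antisense gene AC015712.2. The sources used here do not give whether strand was kept, so reads of ALDH1A3 and AC015712.2 cannot be told apart where they overlap.

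Of the 8 measured members besides DHRS2, edgeR's quasi-likelihood test (adjusted p under 0.05 over all genes) called 4 higher and 3 lower in SETDB1-knockout cells and left 1 uncalled. Over all genes tested the test called 63.5%, with 31.9% higher and 31.6% lower. For 7 of these 8 genes the ranges of SETDB1-knockout and control libraries were apart, as for 66.8% of the genes tested. These counts include ALDH1A3 among the higher and CYP26B1 among the lower genes. Each reached the filter's level only in the group where it was higher, so the counts are given as a description. The median log2 fold change of the 8 was 0.10, beside 0.01 over all genes tested.

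**Figure D2:**
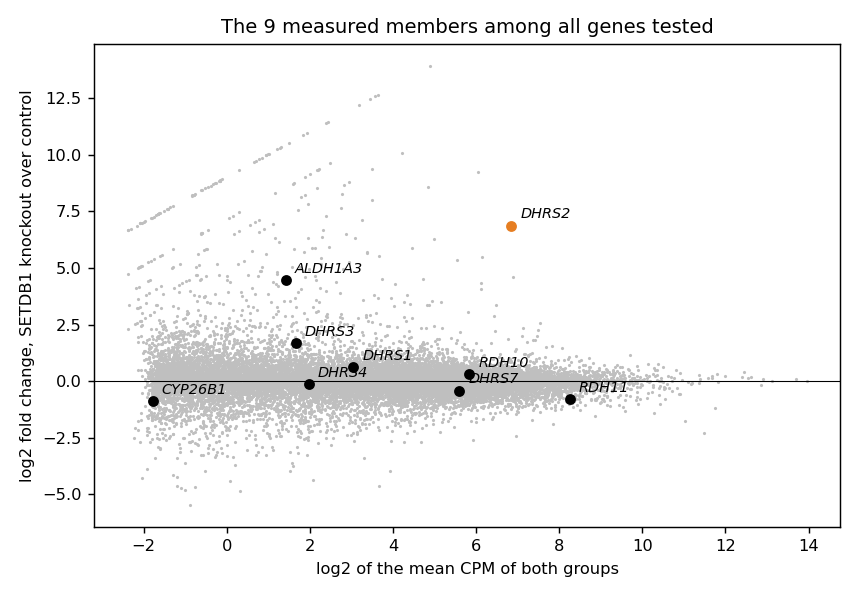
Log2 fold change of SETDB1 knockout over control against the log2 mean CPM of both groups for the 17675 genes tested (grey), with DHRS2 in orange and the other measured members in black. DHRS2 and ALDH1A3 stand above the main cloud at 6.87 and 4.48, DHRS3 lies at its upper edge at 1.66, and the other members lie within it.

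Among these 8 genes the largest change was of ALDH1A3. This gene (ENSG00000184254, chromosome 15, 100877714 to 100916626) encodes an enzyme that oxidises retinaldehyde to retinoic acid. ALDH1A3 had 4.598, 5.17 and 5.56 CPM in SETDB1-knockout libraries and 0.267, 0.0631 and 0.339 CPM in control libraries. The control values rest on 8, 2 and 12 reads. All 3 SETDB1-knockout libraries were above all control libraries, and control replicate 2 was the lowest. The gene rose by a log2 fold change of 4.48 ± 0.24 (SE; edgeR adjusted p = 2.68e-12), 22.9-fold between mean CPM. ALDH1A3 reached the filter's level only in the SETDB1 knockout, so this p-value is not taken as support for the rise. Its overlapping antisense gene AC015712.2 had 2.59 ± 0.6005 CPM in SETDB1-knockout cells and 0.0649 ± 0.0563 CPM in control cells (SD, n = 3 each), and its part in the ALDH1A3 counts was not tested.

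DHRS3 (ENSG00000162496, chromosome 1, 12567910 to 12617731), which reduces retinaldehyde back to retinol and is itself known to be induced by retinoic acid, also rose. It had 5.23, 4.91 and 4.27 CPM in SETDB1-knockout libraries and 1.40, 1.23 and 1.86 CPM in control libraries, without overlap. The log2 fold change was 1.66 ± 0.15 (SE; edgeR adjusted p = 7.88e-09).

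RDH10 (ENSG00000121039, chromosome 8, 73294612 to 73325281), which catalyses the first oxidation of retinol in embryos, rose by a smaller amount. It had 61.7, 66.6 and 61.8 CPM in SETDB1-knockout libraries and 54.7, 50.7 and 48.0 CPM in control libraries. The groups were close but did not overlap, and the log2 fold change was 0.31 ± 0.06 (SE; edgeR adjusted p = 1.07e-04). DHRS1 (ENSG00000157379, chromosome 14, 24290598 to 24299833), a reductase of steroids and other carbonyl compounds, had 9.46, 10.4 and 10.2 CPM in SETDB1-knockout libraries and 6.605, 6.34 and 6.61 CPM in control libraries. It rose by 0.62 ± 0.08 on the log2 scale (SE; edgeR adjusted p = 1.91e-06), in a stretch of chromosome 14 where the median log2 fold change of up to 25 expressed genes on each side was 0.29.

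RDH11 and DHRS7 moved the other way. RDH11 (ENSG00000072042, chromosome 14, 67676801 to 67695814), a microsomal retinaldehyde reductase, had 235, 221 and 214 CPM in SETDB1-knockout libraries, against 410.2, 374 and 370.03 CPM in control libraries. It fell by 0.79 ± 0.06 on the log2 scale (SE; edgeR adjusted p = 4.45e-10), and the genes around it had a median of -0.23. DHRS7 (ENSG00000100612, chromosome 14, 60144120 to 60169856), an enzyme of the endoplasmic reticulum that accepts steroids and retinoids, had 43.9, 41.4 and 38.4 CPM in SETDB1-knockout libraries and 61.0, 53.2 and 51.1 CPM in control libraries. It fell by 0.42 ± 0.07 on the log2 scale (SE; edgeR adjusted p = 1.99e-05). PCNX4, whose annotated transcripts share sequence with those of DHRS7, fell by 0.61 ± 0.06 on the log2 scale (SE; edgeR adjusted p = 1.70e-08), and how many DHRS7 reads were affected was not tested.

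CYP26B1 (ENSG00000003137, chromosome 2, 72129238 to 72148038), which degrades retinoic acid, was near the detection limit and reached the filter's level only in the control. It had 6, 5 and 9 reads in SETDB1-knockout libraries and 11, 10 and 16 reads in the control libraries. Its log2 fold change was -0.90 ± 0.37 (SE; edgeR adjusted p = 0.0401), and the call was lost under 8 of 12 alternatives, with adjusted p between 0.0339 and 0.162 over all 12. These included leaving out control replicate 1 or 3 (edgeR adjusted p = 0.0723 and 0.160) and SETDB1-knockout replicate 1 or 2 (0.0771 and 0.162). DHRS4 (ENSG00000157326, chromosome 14, 23953586 to 23969279), a peroxisomal reductase of retinaldehyde, was not called. It had 3.37, 3.84 and 4.07 CPM in SETDB1-knockout libraries and 4.07, 3.75 and 4.40 CPM in control libraries, with overlapping groups. Its log2 fold change was -0.12 ± 0.12 (SE; edgeR adjusted p = 0.402), with a 95% interval of -0.36 to 0.13.

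Scaled by exon length, DHRS2 ranked 2 of 9 in the SETDB1 knockout and 7 of 9 in the control. In the SETDB1 knockout, RDH11 led with 40.4 ± 2.005 CPM per kb, followed by DHRS2 with 30.3 ± 1.32 and DHRS7 with 12.7 ± 0.848 CPM per kb (SD, n = 3 each). In the control, RDH11 led with 69.7 ± 4.01 CPM per kb, followed by DHRS7 with 17.0 ± 1.599 and RDH10 with 9.61 ± 0.632, while DHRS2 had 0.261 ± 0.0579 CPM per kb. In the SETDB1 knockout DHRS7 overlapped RDH10, which had 11.9 ± 0.521 CPM per kb. There DHRS4, at 1.63 ± 0.155, likewise overlapped DHRS3, at 1.58 ± 0.161 CPM per kb, and the other neighbours in the order did not overlap. In the control no neighbours in the order overlapped, and the order ended with CYP26B1 at 0.0754 ± 0.0137 and ALDH1A3 at 0.0386 ± 0.0248 CPM per kb. The lengths are those of all annotated exons together, and since DHRS2 has transcripts annotated with retained introns, its length of 7556 bases can make its level per kb too low.

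**Figure D3:**
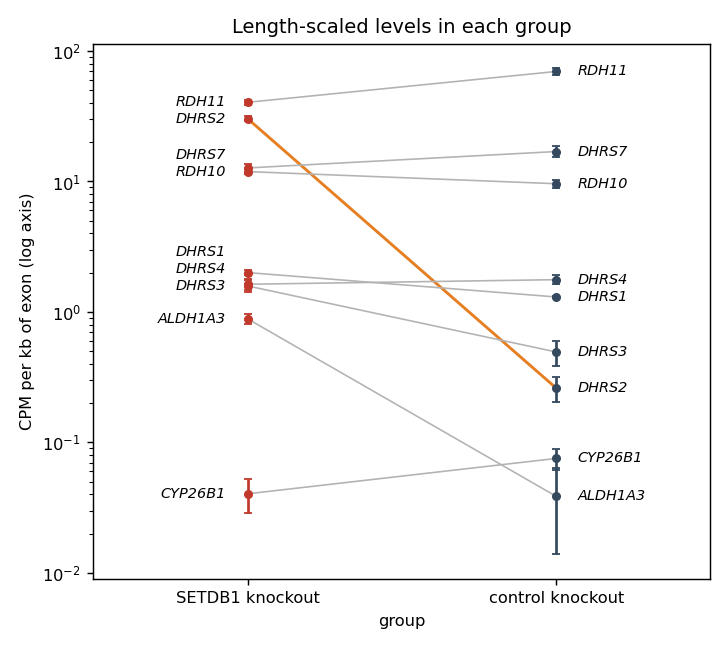
Mean CPM per kb of annotated exon on a log axis, in the SETDB1 knockout on the left and the control on the right; error bars are SD over 3 libraries and each line joins the same gene. The line of DHRS2 (orange) joins 30.3 in the SETDB1 knockout with 0.261 in the control and crosses those of 5 genes.

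By its levels in all 6 libraries, on the log2(CPM + 0.1) scale, the gene nearest to DHRS2 was AL161431.1, a long intergenic RNA gene on chromosome 13, at a Euclidean distance of 1.70. It had 141, 131 and 143 CPM in SETDB1-knockout cells and 3.40, 3.56 and 2.46 CPM in control cells. LRRK1, a leucine-rich repeat kinase gene, came next at a distance of 2.33, with 92.4, 86.3 and 94.6 CPM in SETDB1-knockout cells and 2.47, 2.33 and 1.92 CPM in control cells. NEFH, MYO10 and ARHGAP4, which encode a neurofilament subunit, an unconventional myosin and a GTPase-activating protein, followed at 3.29, 3.72 and 3.81. This likeness was over 6 libraries of 2 groups, and all 5 genes were selected by it, so their differences are not tested here.

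The surroundings of DHRS2 were examined through all 24 genes of the table within 500 kb, of which 23 were tested. Of these 13 were higher and 1 was lower, beside 31.9% and 31.6% of all genes tested, so that the share called in either direction was near the 63.5% over all genes. The 23 had a median log2 fold change of 0.28, beside 0.01 over all genes tested and 0.30 over the 50 expressed genes nearest to DHRS2. Of the 12 tested genes before its start 8 were higher and none was lower, and of the 11 after its end 5 were higher and 1 was lower. The largest change among them was of CARMIL3, a regulator of actin capping. CARMIL3 had 0.733, 0.838 and 0.556 CPM in SETDB1-knockout cells and 0.200, 0.158 and 0.198 CPM in control cells. Its log2 fold change was 1.91 ± 0.33 (SE; edgeR adjusted p = 4.07e-05). This gene, counted among the 13 higher, reached the filter's level only in the SETDB1 knockout, so its p-value is not taken as support for a rise. AP1G2, 62.0 kb before the start, which encodes a subunit of a clathrin adaptor, had 17.8, 14.2 and 15.6 CPM in SETDB1-knockout cells and 6.17, 6.56 and 5.03 CPM in control cells. AP1G2 rose by 1.42 ± 0.10 on the log2 scale (SE; edgeR adjusted p = 2.66e-10), and the thiamine triphosphatase gene THTPA beside it rose by 1.10 ± 0.15 (SE; edgeR adjusted p = 3.03e-06). AP1G2 and THTPA overlap each other in the annotation, so their reads cannot be told apart there.

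The paralogs on the far side were not called. DHRS4L2, a near copy of DHRS4, had a log2 fold change of -0.05 ± 0.12 (SE; edgeR adjusted p = 0.727, 95% interval -0.31 to 0.21). The pseudogene DHRS4L1 had 0.13 ± 0.44 (edgeR adjusted p = 0.817, 95% interval -0.79 to 1.04) and DHRS4-AS1, which runs antisense to DHRS4, had 0.13 ± 0.15 (SE; edgeR adjusted p = 0.463). With the median of the surrounding genes taken out as a fixed value, DHRS2 stood at a log2 fold change of 6.57. DHRS4 stood at -0.44 and was then called (edgeR adjusted p = 0.00321). This step leaves out the spread of the surrounding genes, so that call is not taken as a fall of DHRS4.

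**Figure D4:**
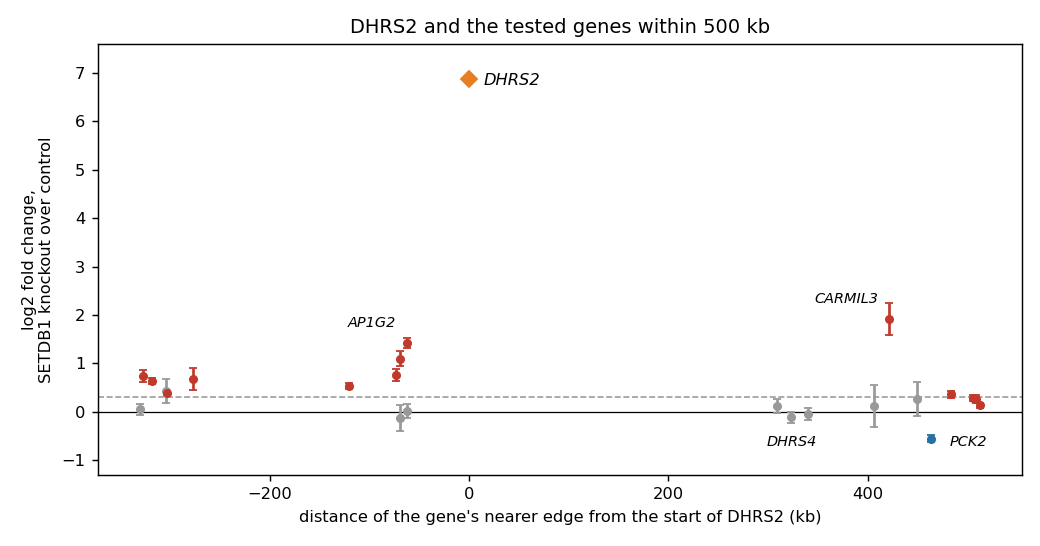
Log2 fold change of SETDB1 knockout over control against the distance in kb from the start of DHRS2 for the tested genes within 500 kb; red points were called higher, blue lower and grey not called, bars are SE, and the dashed line is the median of the 50 nearest expressed genes (0.30). DHRS2 stands at 6.87, while no neighbour exceeds 1.91.

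The wider retinoid pathway was read from 4 lists. Each held genes called in both directions, as did all genes tested, of which 31.9% were higher and 31.6% lower, and the counts are given as a description. Among other enzymes of retinoid metabolism, 16 of 31 genes were tested, with 5 higher, 3 lower and 8 not called and a median log2 fold change of 0.06. The retinol dehydrogenase genes RDH5 and RDH13 were higher by 0.67 ± 0.20 and 0.49 ± 0.08 (SE; edgeR adjusted p = 0.00710 and 2.91e-05), and the mitochondrial aldehyde dehydrogenase gene ALDH1B1 by 0.66 ± 0.06 (edgeR adjusted p = 7.24e-09). The call of RDH5 was lost without SETDB1-knockout replicate 3 (edgeR adjusted p = 0.0586), without control replicate 3 (0.0573) and with the median of its surroundings taken out (0.0740). RDH13 lies where the surrounding genes had a median of 0.74, and with this taken out it stood at -0.24 (edgeR adjusted p = 0.0156). The median is taken out as a fixed value without its spread, so that call is not taken as a fall of RDH13.

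ALDH1A2, the retinaldehyde dehydrogenase of early embryos, fell, whereas its relative ALDH1A3 rose. It had 1.57, 1.47 and 1.37 CPM in SETDB1-knockout libraries and 3.87, 4.19 and 5.14 CPM in control libraries, and the groups did not overlap. ALDH1A2 fell by 1.59 ± 0.15 on the log2 scale (SE; edgeR adjusted p = 1.14e-08). The genes around ALDH1A2 had a median of -0.48, and with this taken out ALDH1A2 stood at -1.11. CYP1B1, a cytochrome that can also make retinoic acid, fell by 0.34 ± 0.07 (SE; edgeR adjusted p = 2.02e-04). RETSAT, which saturates retinol, fell by 0.14 ± 0.06 (SE; edgeR adjusted p = 0.0397), a call lost under 5 of 12 alternatives, among them without control replicate 1 (0.208) and without SETDB1-knockout replicate 2 (0.111) or 3 (0.144). SDR16C5, another retinol dehydrogenase gene, was under the filter with 7, 11 and 16 reads in the SETDB1 knockout and 3, 0 and 2 reads in the control.

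Of 13 genes for retinoid carriers and storage, 4 were tested, with 2 higher and 1 lower and a median of 0.27. LRAT, which esterifies retinol for storage, had 1.90, 2.08 and 1.46 CPM in SETDB1-knockout libraries and 0.6004, 0.347 and 0.706 CPM in control libraries. It rose by 1.70 ± 0.24 on the log2 scale (SE; edgeR adjusted p = 3.13e-06). DGAT1, an acyltransferase that can also esterify retinol, rose by 0.68 ± 0.06 (SE; edgeR adjusted p = 6.48e-09). The genes around DGAT1 had a median of 0.43, and with this taken out DGAT1 stood at 0.25. RBP7, a cellular retinol-binding protein gene, had 4.598, 5.29 and 4.89 CPM in SETDB1-knockout libraries and 15.0, 15.2 and 17.0 CPM in control libraries, and fell by 1.67 ± 0.09 on the log2 scale (SE; edgeR adjusted p = 2.37e-12).

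Of 14 genes for retinoic acid binding proteins, receptors and their cofactors, 12 were tested, with 4 higher and 4 lower and a median of 0.01. RARB, a receptor gene that retinoic acid is known to induce, had 1.999, 2.08 and 2.08 CPM in SETDB1-knockout libraries and 0.367, 0.284 and 0.311 CPM in control libraries. Its log2 fold change was 2.67 ± 0.22 (SE; edgeR adjusted p = 1.72e-09). RARB, counted among the 4 higher, reached the filter's level only in the SETDB1 knockout, so this p-value is not taken as support for its rise. RARG rose by 1.01 ± 0.07 and RXRA by 0.66 ± 0.09 on the log2 scale (SE; edgeR adjusted p = 1.11e-10 and 1.70e-06), whereas RARA stood at 0.0003 (edgeR adjusted p = 0.997, 95% interval -0.17 to 0.17). RXRB fell by 0.32 ± 0.05 and the coactivator gene NCOA1 by 0.28 ± 0.06 (SE; edgeR adjusted p = 4.56e-05 and 3.48e-04). The coactivator genes differed in direction, since NCOA2 fell by 0.23 ± 0.05 and NCOA3 rose by 0.63 ± 0.06 (SE; edgeR adjusted p = 9.84e-04 and 6.33e-09). The genes around NCOA3 had a median of 0.44.

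Of 18 genes known as retinoic acid targets, 10 were tested, with 3 higher and 3 lower and a median of -0.04. RARB, which reached the filter's level only in the SETDB1 knockout, and LRAT are in this list too. The third that rose was the transglutaminase gene TGM2, by 0.60 ± 0.06 on the log2 scale (SE; edgeR adjusted p = 2.22e-08). The genes around TGM2 had a median of 0.27, and with this taken out TGM2 stood at 0.33. The receptor-interacting protein gene NRIP1 fell by 0.58 ± 0.05 and the homeobox gene HOXB4 by 0.24 ± 0.05 (SE; edgeR adjusted p = 9.63e-09 and 4.16e-04).

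**Figure D5:**
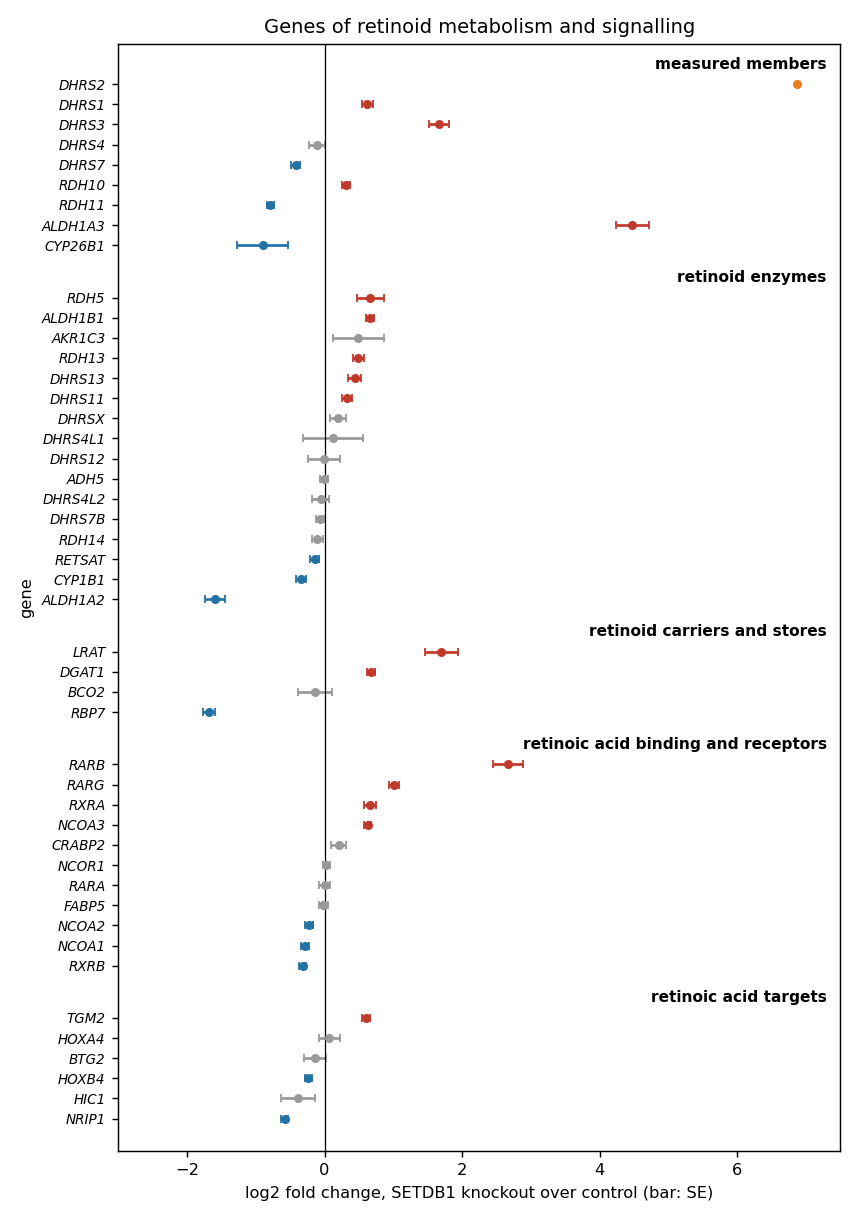
Log2 fold change of SETDB1 knockout over control with its SE for the measured members and for tested genes of the 4 retinoid lists; genes in 2 lists are drawn once and 2 called genes are not drawn, red was called higher, blue lower and grey not called, and DHRS2 (orange) is drawn without a test. DHRS2, ALDH1A3 and RARB stand farthest to the right, and RBP7 and ALDH1A2 farthest to the left.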

How the data were processed

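RNA-seq of 3 SETDB1-knockout and 3 control H1299 samples was used; groups and replicate numbers come from the sample titles. The authors deposited raw read counts per gene, made with FastQC, TopHat2 and HTSeq on GRCh38.p7, per the submitters' processing notes; the sources used here give no versions, settings or strandedness. The smallest row maximum was 11 counts, so genes below this were not analysed. GENCODE 29 (GRCh38) held 18593 of 18677 Ensembl identifiers, version numbers aside, and its coordinates are given; for pseudoautosomal DHRSX the X row was used.

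In R 4.3.3, edgeR 4.0.16 (filterByExpr, TMM with factors from 0.976 to 1.02, robust glmQLFit and glmQLFTest) compared SETDB1 knockout with control over 17675 genes, with Benjamini-Hochberg adjustment and a threshold of 0.05. CPM are read counts scaled to a common TMM-adjusted library total. The SE is the absolute log2 fold change divided by the square root of the quasi-likelihood F statistic, and 95% intervals use the fit's total degrees of freedom. Replicates differed by more than counting error (chi-square per degree of freedom 2.33 to 10.4), so none was counted as a copy. The steps were tested on simulated data in which few genes changed, in equal numbers up and down. In the present data 63.5% of genes tested were called, a setting that the simulation does not cover.

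The members and lists were chosen with earlier results of these data known. Named genes are the members, up to 3 called rises and 3 called falls per list, the 3 largest changes near DHRS2, the 5 genes nearest to DHRS2 in level, and SETDB1. RARA, NCOA2, NCOA3, SDR16C5, the DHRS4 paralogs and genes that overlap members were added after their values were seen. Some genes that these rules name are not reported here. Alternatives were DESeq2 1.42.0, DESeq2 size factors, library size alone, no filter, the replicate number as a block, the median of 25 expressed genes (log2 CPM above 3) on each side taken out, and each library left out.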

Additional observations from a re-analysis of the deposited data

How the results depend on the processing

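Across 12 alternatives, the members called higher besides DHRS2 numbered 4 under each, and those called lower numbered 2 to 4. Over all genes the alternatives called 5072 to 6155 higher and 4688 to 5839 lower. The member counts include ALDH1A3 and, under some alternatives, CYP26B1. Each reached the filter's level only in the group where it was higher, so these counts are given as a description. The log2 fold change of DHRS2 ranged from 6.57 to 6.98, and that of ALDH1A3 from 4.04 to 4.95. With the median of the surrounding genes taken out, 3 other retinoid enzymes were higher and 5 lower, against 5 and 3 without this step, and RDH13 turned to -0.24. This step lowers genes in stretches that rose as a whole, and can also remove a change of a gene shared with its neighbours. The median enters as a fixed value without its spread, so calls gained or reversed by this step are not taken as changes of the gene. Of 444 values of 37 genes under the alternatives, 422 kept their direction and side of the threshold, or for DHRS2 stayed within 1 SD. Of the rest, 19 lost their call, 1 gained it, 1 moved and 1 reversed. Many of these genes were named for a call or a large change. The share kept therefore follows in part from that choice and is given as a description. Leaving out 1 library gave 5072 to 5570 genes higher and 5163 to 5524 lower.

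The replicate numbers gave no sign of pairing: deviations from the group means correlated at 0.157, -0.0866 and 0.0616 for the same numbers, and SETDB1-knockout replicate 2 correlated best with control replicate 3 (0.186). With the replicate block, 5864 genes were higher and 5839 lower, against 5635 and 5584 without it, and 4 members were higher and 2 lower, the difference being CYP26B1 (edgeR adjusted p = 0.0504). Genes with few reads, such as CYP26B1 and ALDH1A3 in the control, are limited by counting error. Each group had 1 guide and 3 libraries, so a difference between the cell lines from another source cannot be told apart from the targeting of SETDB1.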

Other observations

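The stretch of chromosome 15 around ALDH1A3 was chosen after its values were seen, because LRRK1, the second nearest gene to DHRS2 in level, starts 2.59 kb beyond the end of ALDH1A3, so its values are given as a description without a test. LRRK1 had 91.1 ± 4.27 CPM in SETDB1-knockout cells and 2.24 ± 0.286 CPM in control cells (SD, n = 3 each). PCSK6, which encodes a proprotein convertase and lies 381 kb from ALDH1A3, had 11.8 ± 0.348 CPM in SETDB1-knockout cells and 0.563 ± 0.0605 CPM in control cells. Between SETDB1-knockout and control cells, the log2 fold changes of the RNA genes AC015712.2, AC015712.6, AC090907.2 and AC027020.2 were 5.30, 2.29, 1.98 and 0.96, and these genes reached the filter's level only in SETDB1-knockout cells, so that they could be measured only where they were high. CHSY1, which encodes a chondroitin synthase, stood at 0.26 and SNRPA1, a spliceosome gene, at 0.25, while SELENOS, a selenoprotein gene, stood at -0.05, and LINS1 and ASB7 at -0.11 and -0.12.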
